A study of Saccharomyces cerevisiae with 28 samples.

Results

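The comparison set the yeast strain 4Gts against WT in SC medium after 2 h at 36 °C, with both total mRNA and the fragments that ribosomes protect from nuclease (footprints) sequenced from each culture. It was chosen by the titles of the libraries. It holds 8 of the 28 libraries of the series, that is 2 cultures of 4Gts and 2 of WT, each with a footprint and an mRNA library. The 4Gts strain is labelled YWG1246 (YAJ41) and WT is labelled YWG1245 (YAJ3), and the alleles that separate them are not given in the labels. Galactose at 2% was added to both strains, growing in 2% raffinose, 30 min ahead of the 2 h at 36 °C, so galactose and heat were shared. Both were treated with 0.1 mg/ml cycloheximide, which stalls elongating ribosomes, immediately before chilling. The labels number the cultures of each strain as replicates 1 and 2 without saying that they were grown separately, so p-values here measure only the spread between these samples.

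Per the design text, the cells profiled were depleted of eIF4G. In yeast, eIF4G is made from the paralogous genes TIF4631 and TIF4632, and it is the scaffold that holds the cap-binding protein eIF4E, the helicase eIF4A and the poly(A)-binding protein Pab1 in the eIF4F complex. This complex binds the capped end of an mRNA and helps the small ribosomal subunit with its initiator tRNA to load and scan towards the start codon. Translation efficiency (TE) here is the footprint level of a gene divided by its mRNA level in the same culture, in log2. Both were given as RPKM, the reads of a gene scaled to its length and to the reads of its library, and both are relative measures: a change shared by all genes, such as a general loss of translation, is removed by the scaling and cannot be seen.

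The 4 footprint libraries of this comparison held an estimated 4.57 and 5.45 M reads in 4Gts and 10.4 and 5.32 M reads in WT. The 4 mRNA libraries held 13.0 and 3.90 M reads in 4Gts and 14.2 and 11.7 M reads in WT. At these depths a gene of 1 kb with 10 RPKM carried a counting error of 8.39% to 16%. The 4 cultures did not fall into 2 tight pairs: over the 4689 genes tested, footprints of replicate 1 of 4Gts correlated at 0.943 with replicate 2 of 4Gts, at 0.920 with replicate 1 of WT and at 0.825 with replicate 2 of WT. Stationary-phase genes (SNZ1, SNO1, SPG1, SPG4, HSP26 and SSA3, the last also on the heat shock list) took 0.202% and 1.11% of footprints in 4Gts and 1.07% and 4.37% in WT. Replicate 2 was thus the higher in each strain, and replicate 2 of WT was the highest of the 4 cultures. Cytosolic ribosomal protein genes were lowest in that same WT culture, as given with their values. Genes that mark a-cells took 0.241% and 0.0347% of footprints in 4Gts and 0.106% and 0.0314% in WT, so here replicate 1 was the higher in each strain. Alpha-cell genes took at most 0.00126% in 4Gts and 0.00359% in WT, and meiosis genes at most 0.00875% and 0.0233%. In such bulk samples, fewer cells of a kind and less RNA per cell cannot be told apart, and the part of these differences between cultures in the results was not tested.

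Differences are given on the log2(RPKM + 1) scale as 4Gts minus WT, with the standard error (SE), and this scale understates differences of low genes. The threshold was an adjusted p below 0.05 (Benjamini-Hochberg) in limma, fitted across 4689 genes on the 8 SC cultures, those at 8 h included, which share 1 estimate of the spread. They are counted here as 8, but the labels do not say whether the 2 h and 8 h samples of a number were separate cultures. If they were not, the spread rests on fewer cultures and the p-values are too low. For TE, 8 genes passed (0.171% of genes tested) and all 8 were lower in 4Gts. For mRNA, 3 passed (0.064%), 2 higher (0.0427%) and 1 lower (0.0213%). For footprints, 59 passed (1.26%), 13 higher (0.277%) and 46 lower (0.981%). At an unadjusted p below 0.05 the numbers were 958 for TE (20.4%), 917 for mRNA (19.6%) and 920 for footprints (19.6%). The 2 values of a strain did not overlap those of the other for 52.1% of genes in TE, 52% in mRNA and 52.6% in footprints, split about evenly by direction (for mRNA 26.3% higher and 25.7% lower), so a lack of overlap is common here. The difference had the same sign within replicates 1 and 2 for 66.9% of genes in TE, 75.1% in mRNA and 76.6% in footprints. With the 4 cultures at 2 h alone, 0 genes passed for TE, 2 for mRNA and 0 for footprints. The counts of calls also moved when a culture was left out. With each of the 8 SC cultures left out in turn, 0 genes passed for TE except without replicate 1 of 4Gts at 2 h, where 98 did (32 higher and 66 lower), and 0 to 4 passed for mRNA and 0 or 1 for footprints. The split of calls also moved with the scaling: without scaling it was 27 higher and 24 lower for mRNA and 1 and 1 for footprints, and after quantile normalization it was 33 and 89 for mRNA and 2 and 1 for footprints. Leaving out the scaling moved the median footprint difference of all genes by 0.11.

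**Figure D1:**
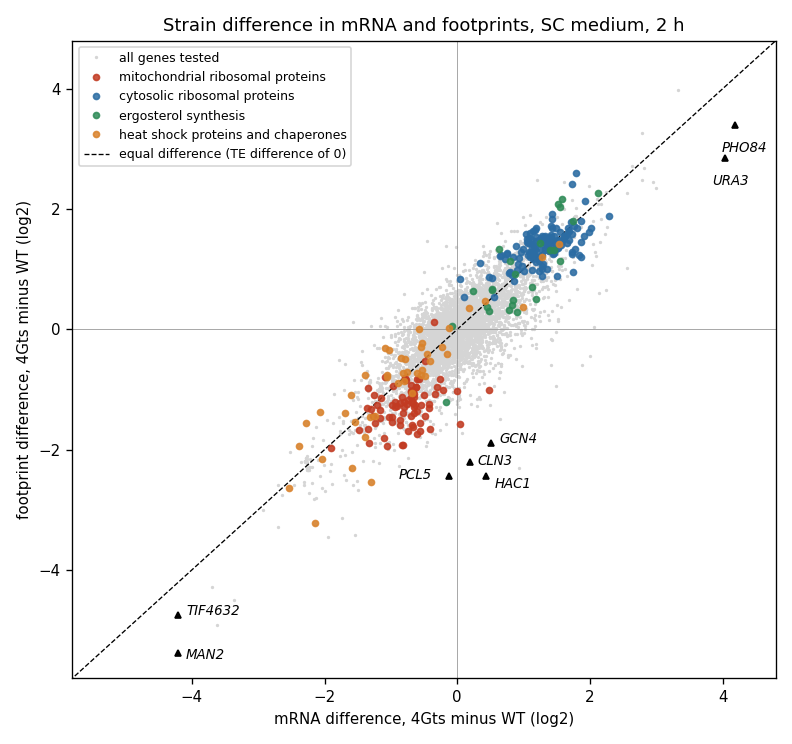
Strain difference in mRNA (horizontal axis) and in footprints (vertical axis) of the 4689 genes tested, both as log2 4Gts minus WT, with 4 gene groups coloured and 8 genes named. A gene on the dashed line differed equally in both, so its TE difference was 0; CLN3, PCL5, HAC1 and GCN4 lie below the line near an mRNA difference of 0, mitochondrial ribosomal protein genes lie at the lower left and cytosolic ones at the upper right.

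The genes of the eIF4F complex were examined first. TIF4632, which encodes eIF4G2, had 0.505 and 0.282 mRNA RPKM in 4Gts, against 21.5 and 25.8 in WT. Footprint levels were 1.12 and 0.771 RPKM for 4Gts and 54 and 43 RPKM for WT. Both readouts were near 0 in both 4Gts cultures and the groups did not overlap. Its mRNA fell by 4.21 (SE 0.22, limma, Benjamini-Hochberg adjusted p = 0.00237) and its footprints fell by 4.75 (SE 0.28, adjusted p = 0.00993 by the same test). With each of the 8 SC cultures left out in turn, the first call held in 6 fits and the second in 2, with adjusted p up to 0.0634 and 0.213. TIF4631, which encodes eIF4G1, had 201 and 227 mRNA RPKM in 4Gts, against 80.4 and 54.3 in WT, and 105 and 236 footprint RPKM in 4Gts, against 87.1 and 60.1 in WT. Both readouts were higher in each 4Gts culture, but the differences of 1.62 for mRNA (SE 0.43, limma adjusted p = 0.123) and 1.0 for footprints (SE 0.71, limma adjusted p = 0.478) did not pass. No protein was measured, so these values do not show how much eIF4G1 the cells held.

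No partner of eIF4G passed in TE. CDC33, the cap-binding protein eIF4E, had a TE difference of 0.08 (SE 0.18), and TIF1 and TIF2, which both encode eIF4A and may share reads as near-identical copies, had -0.12 (SE 0.19) and -0.20 (SE 0.20). PAB1, the poly(A)-binding protein, had a log2 TE of -0.12 and -0.35 in 4Gts, against 0.57 and 0.22 in WT. Its groups did not overlap, and its difference of -0.63 (SE 0.21, limma adjusted p = 0.153) did not pass. Among the 13 genes of the eIF4F and cap-binding list the median TE difference was -0.12, beside -0.02 over all genes tested, and TIF4632 in mRNA and footprints was the gene of that list that passed. That median was -0.01 without replicate 2 of 4Gts, -0.03 without replicate 2 of WT and 0.01 after quantile normalization. The 22 tested genes of the other initiation factors had medians of 0.08 in TE, 0.37 in mRNA and 0.44 in footprints, and none passed. With each of the 4 cultures left out the mRNA median ran from 0.13 (without replicate 2 of WT) to 0.58 (without replicate 2 of 4Gts), the footprint median from 0.23 (without replicate 2 of WT) to 0.80 (without replicate 1 of WT) and the TE median from 0.03 to 0.14. TIF11 (eIF1A) had the largest TE difference among them, 0.83 (SE 0.21, limma adjusted p = 0.0979).

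The largest called falls in TE with a known protein product were in 2 cyclin genes. CLN3, a G1 cyclin that starts the commitment to division and whose mRNA has an upstream open reading frame, lies on chromosome I from 65778 to 67520 (RefSeq assembly R64). Its mRNA was 220 and 361 RPKM for 4Gts, against 187 and 303 RPKM for WT. Its footprint level was 6.34 and 11.8 RPKM for 4Gts, against 26.3 and 61.7 RPKM for WT. The mRNA values of the strains overlapped and the footprint values did not. TE fell by 2.39 (SE 0.31, limma with Benjamini-Hochberg, adjusted p = 0.0418), by 2.12 within replicate 1 and by 2.66 within replicate 2. PCL5, a cyclin of the kinase Pho85 that directs degradation of the transcription factor Gcn4, lies on chromosome VIII from 237004 to 237693. Its mRNA was 132 and 264 RPKM for 4Gts, against 159 and 244 RPKM for WT, and its footprint level was 6.87 and 10.7 RPKM for 4Gts, against 47.3 and 47.2 RPKM for WT. Here too the mRNA values overlapped while both 4Gts cultures had fewer footprints, and TE fell by 2.31 (SE 0.29, limma adjusted p = 0.0418). Over the 30 tested cyclins and G1/S regulators the median TE difference was -0.06, with these 2 passing, and the median was -0.23 without replicate 1 of 4Gts and 0.03 without replicate 2. CLN1, another G1 cyclin, had a TE difference of 0.36 (SE 0.18) beside an mRNA difference of -2.18 (SE 0.65, limma adjusted p = 0.156).

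A further 3 of the called genes encode mitochondrial proteins. MRPL4, a protein of the large mitochondrial ribosomal subunit (chromosome XII, 1014491 to 1015450), had 31.9 and 41.5 footprint RPKM in 4Gts, against 94.3 and 111 in WT. Its mRNA was 70.8 and 86.7 RPKM for 4Gts, against 61.5 and 87.1 RPKM for WT. Footprints were lower in both 4Gts cultures at overlapping mRNA, and TE fell by 1.61 (SE 0.20, limma adjusted p = 0.0418). TIM23, the channel subunit of the translocase that takes precursor proteins across the inner mitochondrial membrane (chromosome XIV, 662913 to 663581), had 76.0 and 88.0 footprint RPKM in 4Gts, against 200 and 164 in WT. Its mRNA of 149 and 136 RPKM in 4Gts was above the 129 and 109 RPKM in WT as deposited, though it overlapped once scaled. TE of TIM23 fell by 1.45 (SE 0.20, limma adjusted p = 0.0483). MTO1, which modifies mitochondrial tRNAs (chromosome VII, 53787 to 55796), had 6.25 and 4.41 footprint RPKM in 4Gts, against 29.6 and 20.8 in WT, and 31.5 and 29.3 mRNA RPKM in 4Gts, against 54.0 and 45.1 in WT. Both readouts of MTO1 were lower in 4Gts, the footprints more so, and TE fell by 1.41 (SE 0.20, limma adjusted p = 0.0483).

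The other called genes were less certain in identity. DSF1, a mannitol dehydrogenase gene, had 3.38 and 7.31 footprint RPKM in 4Gts, against 93.6 and 300 in WT, and 6.97 and 13.8 mRNA RPKM in 4Gts, against 65.5 and 245 in WT. Both readouts were far lower in 4Gts, TE fell by 1.30 (SE 0.19, limma adjusted p = 0.0483), and its reads may be shared with its near-identical copy MAN2. YGL088W is an uncharacterised reading frame that overlaps the small nucleolar RNA gene SNR10 in RefSeq. It had 28053 and 54857 mRNA RPKM in 4Gts, against 11297 and 15926 in WT, and 182 and 207 footprint RPKM in 4Gts, against 249 and 483 in WT, so its TE difference of -2.43 (SE 0.35, limma adjusted p = 0.0483) sets footprints of a reading frame against reads that may belong to that RNA. YPR108W-A, with no entry in the RefSeq table, had 111 and 99.1 footprint RPKM in 4Gts, against 129 and 135 in WT, but 45.8 and 40.5 mRNA RPKM in 4Gts, against 7.53 and 12.2 in WT. Its TE difference of -2.44 (SE 0.28, limma adjusted p = 0.0418) was therefore mostly a difference in mRNA. Each of the 8 genes passed in 1 of the 8 fits that left out a culture, with adjusted p up to 0.241 in the others.

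**Figure D2:**
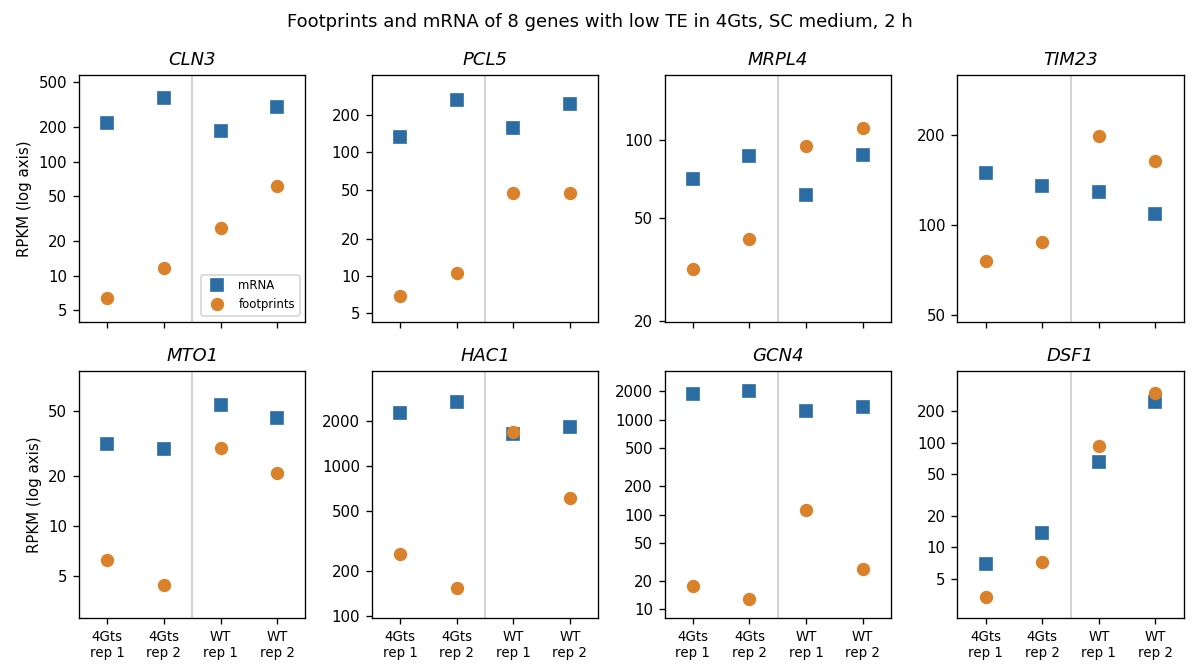
Footprint and mRNA RPKM (log axis, a separate range per gene) of 8 genes in each of the 4 cultures, 4Gts on the left of the grey line and WT on the right. Footprints of CLN3, PCL5, MRPL4, TIM23, HAC1 and GCN4 are lower in both 4Gts cultures while their mRNA is not; for MTO1 and DSF1 both are lower.

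HAC1 and GCN4 had differences in TE as large as these but a wider spread, and did not pass. HAC1 encodes the factor that switches on the unfolded protein response, and its unspliced mRNA is known to be held in a translationally silent form. Its mRNA was 2242 and 2662 RPKM for 4Gts, against 1646 and 1816 RPKM for WT, and its footprint level was 261 and 156 RPKM for 4Gts, against 1687 and 611 RPKM for WT. Footprints were lower and mRNA higher in both 4Gts cultures, and the TE difference was -2.88 (SE 0.57, limma adjusted p = 0.062). GCN4, which switches on genes of amino acid synthesis, is controlled by upstream open reading frames in its leader. It had 17.8 and 12.9 footprint RPKM in 4Gts, against 111 and 26.9 in WT, at 1858 and 2030 mRNA RPKM in 4Gts, against 1254 and 1361 in WT. The footprint levels of the 2 WT cultures differed by more than 4Gts replicate 1 differed from WT replicate 2, and the TE difference was -3.13 within replicate 1 and -1.69 within replicate 2 (-2.41 over both, SE 0.64, limma adjusted p = 0.102).

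Genes with reported regulatory upstream reading frames, which include CLN3, PCL5 and GCN4, had low TE as a list. This list, like the others, was chosen with earlier results of these data known, so its values are a description and not a test. Of 27 listed genes 23 were tested, with a median TE difference of -0.61 against -0.02 over all genes. The groups did not overlap for 17 that were lower and 1 that was higher, where 26.3% and 25.8% of all genes tested did so, and CLN3 and PCL5 passed. The median was -0.55 within replicate 1 and -0.42 within replicate 2, and between -0.59 and -0.50 with each of the 4 cultures left out. SCO1, which is on this list too, fell in footprints, as given below. The list had medians of -0.53 in footprints and 0.09 in mRNA, and the mRNA median was -0.04 without replicate 2 of 4Gts and -0.07 without replicate 1 of WT. Genes reported to initiate without the cap, of which 10 of 11 were tested, had a median TE difference of -0.15, which was 0.04 without replicate 1 of 4Gts, -0.39 without replicate 2 and -0.06 without replicate 2 of WT. In that list YMR181C had -0.97 (SE 0.29, limma adjusted p = 0.123) and MSN1 0.83 (SE 0.22, limma adjusted p = 0.107), and none passed.

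No gene passed with a higher TE here, but the alternatives differed on this. Higher calls numbered 4 with a trended prior, 4 with the authors' deposited TE and 6 with a filter at 50 RPKM. With the replicate number as a block 93 passed higher, and 90 with that block in the 2 h cultures alone. Among genes with a known product, the largest differences whose groups did not overlap were YKE2, a prefoldin subunit, at 1.69 (SE 0.29, limma adjusted p = 0.054) and RIO1, a kinase of small-subunit maturation, at 1.56 (SE 0.38, limma adjusted p = 0.0867). They were followed by TMA16 (1.39) and BUD21 (1.38), a component of the small-subunit processome, while the uncharacterised YJL077W-A, named after its values were seen, had 1.93 with a limma adjusted p of 0.308. Several of these rested on low mRNA values: YKE2 had 336 and 211 footprint RPKM in 4Gts, against 324 and 160 in WT, with 8.57 and 4.77 mRNA RPKM in 4Gts, against 24 and 17 in WT. For TMA16 the mRNA was 11 and 3.48 RPKM for 4Gts, against 10.9 and 11.8 RPKM for WT. RIO1 had more footprints in 4Gts, 36.7 and 18.4 RPKM, against 9.74 and 7.58 RPKM in WT, at overlapping mRNA.

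Many of the genes with called falls in footprints encode proteins of the mitochondrial ribosome, which translates the few mRNAs of the mitochondrial genome and is itself made from nuclear genes. Of the 79 listed and tested genes, 25 fell in footprints and none rose, where 0.981% of genes tested fell. These calls did not hold in the fits that left out a culture. The groups did not overlap for 78, all lower in 4Gts, against 26.3% of all genes. The exception was MRP8, which is on the list by name but whose place in the mitochondrial ribosome is not established. The median difference was -1.25 in footprints, -0.74 in mRNA and -0.44 in TE, so both readouts were low. It hardly varied between cultures: in footprints it was -1.28 within replicate 1 and -1.24 within replicate 2, and between -1.28 and -1.22 with each of the 4 cultures left out. These genes took 0.349% and 0.417% of all footprints in 4Gts, against 0.801% and 0.876% in WT, and 0.192% and 0.199% of mRNA reads in 4Gts, against 0.286% and 0.328% in WT. In TE, 52 of the 79 were lower and 2 higher with no overlap, beside 26.3% and 25.8% of all genes, and only MRPL4 passed.

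Single members show how the lower footprints divided between mRNA and TE. MRPL50, a large-subunit protein, had 96.3 and 74.2 footprint RPKM in 4Gts, against 319 and 300 in WT, and 11.4 and 16.1 mRNA RPKM in 4Gts, against 47.7 and 54.5 in WT. Its footprints fell by 1.97 (SE 0.25, limma adjusted p = 0.0451) with an mRNA difference of -1.90 (SE 0.27, limma adjusted p = 0.053) and a TE difference of -0.07, so the 2 readouts differed by like amounts. IMG1, also of the large subunit, had 32.3 and 50.7 footprint RPKM in 4Gts, against 138 and 152 in WT, and 65.9 and 64.6 mRNA RPKM in 4Gts, against 102 and 122 in WT. Its footprints fell by 1.93 (SE 0.25, limma adjusted p = 0.0451), with -0.82 in mRNA and -1.10 in TE. MRPL7 fell by 1.94 and MRPL31 by 1.88 in footprints, and MRPL4 fell by 1.57 (SE 0.20) with an mRNA difference of 0.04 (SE 0.24). The called genes thus ranged from a difference mostly in mRNA to one mostly in TE.

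**Figure D3:**
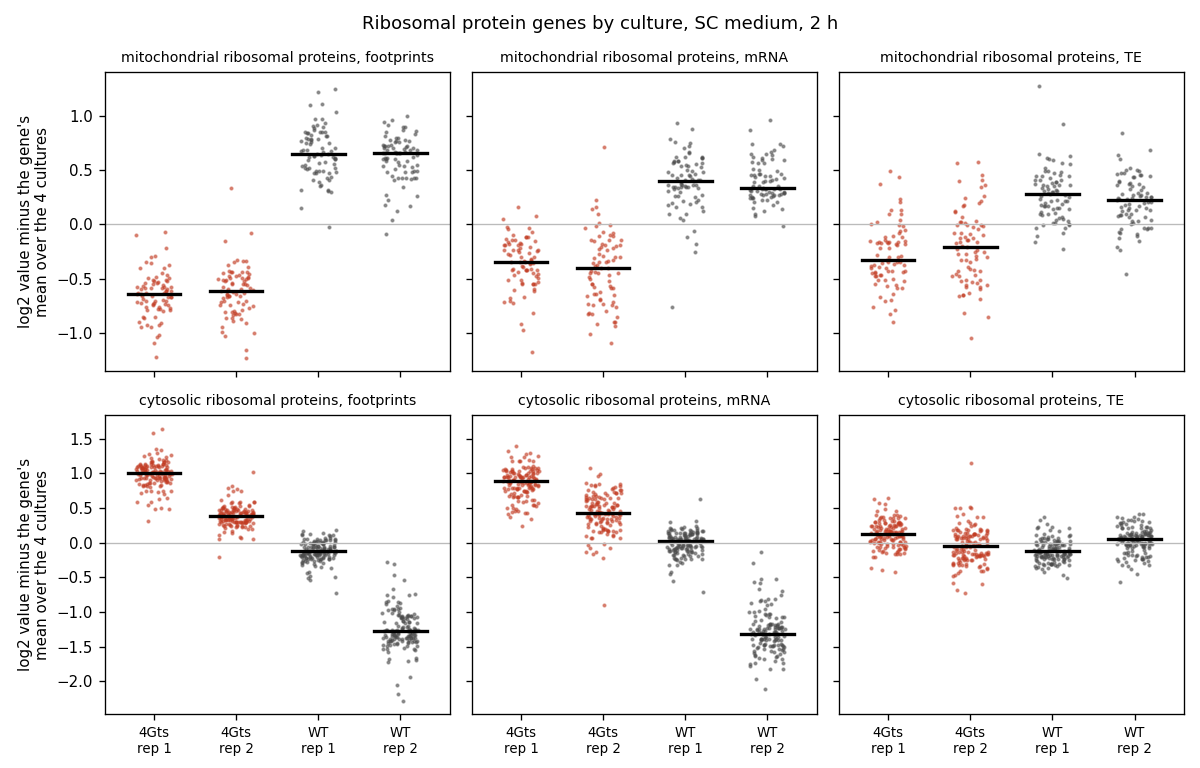
Log2 values of each gene minus its mean over the 4 cultures, for the lists of 79 mitochondrial (top) and of 82 large-subunit and 57 small-subunit cytosolic (bottom) ribosomal protein genes, in footprints, mRNA and TE. The list of 82 also holds RPP1, which is not a ribosomal protein, and the list of 79 holds MRP8, whose place in the mitochondrial ribosome is not established. Each point is a gene, the bar is the median, and 4Gts is left of WT. Mitochondrial genes sit at like levels in both cultures of a strain and lower in 4Gts, while cytosolic genes spread over all 4 cultures, lowest in WT replicate 2 in footprints and mRNA. The cytosolic median TE difference was 0.28 within replicate 1 and -0.07 within replicate 2 for the large subunit, and 0.22 and -0.14 for the small.

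The other called falls in footprints, TIF4632 among them, lay outside the mitochondrial ribosome list. Most of those described here are on no list used, so no theme is tested by them. Of the called falls in footprints, only that of TIF4632 held in any fit that left out a culture. COX17, which carries copper to cytochrome c oxidase, had 159 and 247 footprint RPKM in 4Gts, against 1071 and 1025 in WT, and 39.0 and 41.2 mRNA RPKM in 4Gts, against 146 and 107 in WT. Its footprints fell by 2.50 (SE 0.25, limma adjusted p = 0.0451) and the groups were well apart. SCO1, another copper carrier of that oxidase, had 15.9 and 26.0 footprint RPKM in 4Gts, against 63.5 and 85.1 in WT, and fell by 1.91 (SE 0.30, limma adjusted p = 0.0479). COX23, an assembly factor of the oxidase, fell by 2.00 (SE 0.30) and MAM33, a matrix protein, by 2.19 (SE 0.31), each with a limma adjusted p of 0.0451. RGI1, a gene induced in respiratory growth, had 355 and 722 footprint RPKM in 4Gts, against 4226 and 4961 in WT, and fell by 3.28 (SE 0.52, limma adjusted p = 0.0498). MAN2, the near copy of DSF1, fell by 5.39 (SE 0.78, limma adjusted p = 0.0451), with 3.23 and 6.33 footprint RPKM in 4Gts, against 137 and 339 in WT. Also among the 46, and named after their values were seen, were CBP6 and MBA1, which act in mitochondrial translation, the oxidase assembly factors PET191 and CMC2, the mitochondrial protease PIM1 and the lysyl-tRNA synthetase MSK1.

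For the mitochondrial import list, 36 genes were tested and the medians were -0.76 in footprints, -0.24 in mRNA (-0.10 without replicate 1 of WT) and -0.41 in TE. The groups did not overlap for 27 lower and 3 higher in footprints and for 22 lower and 4 higher in TE. Over all genes tested the shares were 26.3% lower and 26.3% higher in footprints, and 26.3% and 25.8% in TE. TIM23 in TE was the member that passed. SSC1, the matrix Hsp70 that pulls precursors in, had 207 and 396 footprint RPKM in 4Gts, against 1613 and 1479 in WT, and 353 and 433 mRNA RPKM in 4Gts, against 899 and 944 in WT, a difference in footprints of -2.53 (SE 0.49, limma adjusted p = 0.073). MIA40, the import receptor of the intermembrane space, lay the other way in TE, with differences of -1.71 in mRNA (SE 0.24, limma adjusted p = 0.053) and 0.70 in TE (SE 0.24). The list of the respiratory chain and ATP synthase, not limited to structural genes, had a smaller median footprint difference, -0.27 over 48 genes. That median was -0.48 without replicate 1 of WT and -0.11 without replicate 2. The member that passed was the copper carrier SCO1. The TCA cycle list had a median of -0.54 over 24 genes, with none past the threshold, and MDH1, its malate dehydrogenase, had -1.70 (SE 0.34, limma adjusted p = 0.074).

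Genes of the cytosolic ribosome lay in the other direction, but no member passed. The 82 genes of the large-subunit list had a median difference of 1.44 in footprints and 1.35 in mRNA, and the 57 small-subunit genes 1.34 and 1.29. The list of 82 also holds RPP1, a subunit of RNase P and not a ribosomal protein. In footprints, 80 of the 82 and 56 of the 57 were higher in 4Gts with no overlap, beside 26.3% of all genes tested. The TE medians were 0.12 and 0.07. The first was 0.02 without replicate 1 of WT and 0.21 without replicate 2, and the second took the opposite sign after quantile normalization (-0.10), without replicate 1 of 4Gts (-0.08) and without replicate 1 of WT (-0.01). Large-subunit genes took 17.2% and 12.7% of footprints in 4Gts, against 7.59% and 3.93% in WT, and small-subunit genes 11% and 8.06% in 4Gts, against 5.15% and 2.71% in WT. WT replicate 2 was the lowest of the 4 cultures. Without it the footprint median was 0.83 for the large and 0.76 for the small subunit, and without WT replicate 1 it was 2.02 and 1.97. Without WT replicate 2 the mRNA median was 0.67 and 0.62. RPS3 had 4322 and 3365 footprint RPKM in 4Gts, against 1298 and 896 in WT (difference 1.71, SE 0.51, limma adjusted p = 0.146), and RPL3 had 4642 and 2984 in 4Gts, against 1828 and 826 in WT (difference 1.49, SE 0.73, limma adjusted p = 0.32). Many of these genes are near-identical pairs, such as RPL22B with RPL22A, whose reads may be shared.

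The list of genes that build ribosomes had medians above 0 too. Of 136 genes 121 were tested, with medians of 0.93 in footprints, 0.59 in mRNA and 0.30 in TE. In footprints 107 were higher and 0 lower with no overlap, beside 26.3% and 26.3% of all genes tested. NOP56, a core protein of the box C/D small nucleolar RNPs, had 637 and 366 footprint RPKM in 4Gts, against 214 and 113 in WT, and ERB1 had a footprint difference of 1.63 (SE 0.44, limma adjusted p = 0.115). No member passed in any readout. The TE median was between 0.23 and 0.42 with each of the 4 cultures left out, and the mRNA median was 0.23 without replicate 1 of 4Gts and 0.33 without replicate 2 of WT. Elongation and termination factors had a footprint median of 0.58 over 15 genes, and of 0.38 without replicate 2 of WT. SUP35, the termination factor eRF3, stood out among them in TE, with 122 and 141 footprint RPKM in 4Gts, against 65.7 and 48.7 in WT, and overlapping mRNA (TE difference 0.99, SE 0.21, limma adjusted p = 0.0674).

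**Figure D4:**
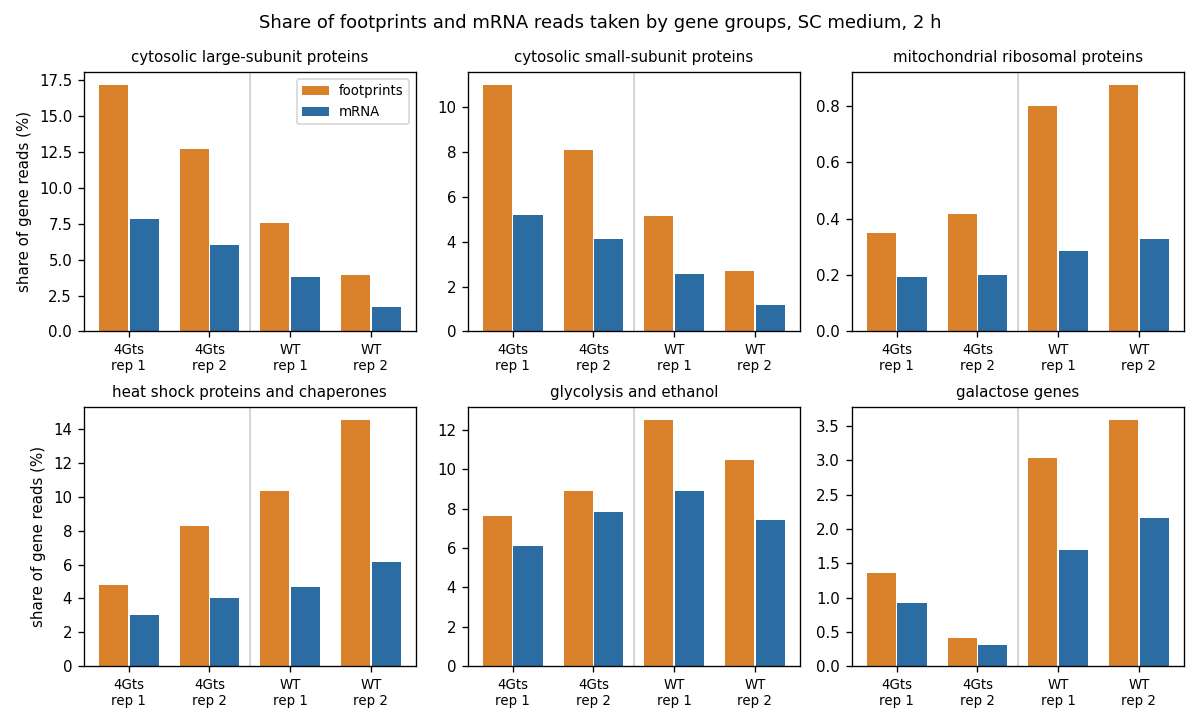
Share of footprints (orange) and mRNA reads (blue) taken by 6 gene groups in each culture, with bars from 0 and a separate range per group, 4Gts left of the grey line and WT right. The shares of both cytosolic ribosomal groups are higher and those of the mitochondrial ribosomal, heat shock and galactose groups lower in both 4Gts cultures, while the 2 cultures of a strain differ most, as a ratio, for galactose genes in 4Gts and for cytosolic ribosomal genes in WT.

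Besides TIF4632, 2 genes passed in mRNA. CWP1, a mannoprotein of the cell wall, had 74.2 and 73.0 mRNA RPKM in 4Gts, against 8.95 and 9.44 in WT, and rose by 2.82 (SE 0.25, limma adjusted p = 0.031). YJL107C, an uncharacterised gene, had 91.9 and 74.1 in 4Gts, against 10.3 and 11.1 in WT, and rose by 2.78 (SE 0.26, limma adjusted p = 0.031). In both, the cultures of a strain lay close together. Each held its call in 2 of the 8 fits that left out a culture, with adjusted p up to 0.209. PHO84, the high-affinity phosphate transporter, had 458 and 282 mRNA RPKM in 4Gts, against 22.6 and 14.4 in WT (difference 4.18, SE 0.73, limma adjusted p = 0.0661). Its footprint level was 56.0 and 32.3 RPKM for 4Gts, against 2.96 and 2.80 RPKM for WT, and rose by 3.40 (SE 0.51, limma adjusted p = 0.0451). Over the 9 tested genes of the phosphate regulon the footprint median was 0.39, so PHO84 stood far from the rest of its list. URA3, a pyrimidine synthesis gene used as a marker in laboratory strains, had 160 and 182 mRNA RPKM in 4Gts, against 17.1 and 4.60 in WT (difference 4.04, SE 0.56, limma adjusted p = 0.053), and its list of 9 tested strain markers had an mRNA median of 0.71.

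Footprints rose in 3 genes of ergosterol synthesis, the fungal sterol pathway. Called rises in footprints, these among them, did not hold in the fits that left out a culture. ERG11, the lanosterol demethylase, had 291 and 485 footprint RPKM in 4Gts, against 91.0 and 73.1 in WT, and rose by 2.08 (SE 0.30, limma adjusted p = 0.0451). ERG5, the sterol desaturase, had 195 and 248 in 4Gts, against 48.8 and 35.5 in WT, and rose by 2.26 (SE 0.29, limma adjusted p = 0.0451). ERG2, the sterol isomerase, rose by 2.16 (SE 0.34, limma adjusted p = 0.0479). Over the 25 tested genes of the pathway the medians were 0.70 in footprints, 0.86 in mRNA and 0.05 in TE. Without replicate 1 of WT the footprint median was 1.13, and the TE median was -0.02 without replicate 2 of 4Gts and -0.10 without replicate 2 of WT. Of the mRNA values, 22 were higher in 4Gts with no overlap and 0 lower, beside 26.3% and 25.7% of all genes tested. SLT2, the MAP kinase of the cell wall integrity pathway, had 344 and 306 footprint RPKM in 4Gts, against 76.9 and 65.8 in WT, and rose by 2.06 (SE 0.27, limma adjusted p = 0.0451). CWP1 and SLT2 belong to the list of 33 tested cell wall genes, which had medians of 0.59 in footprints, 0.96 in mRNA and -0.33 in TE (-0.14 without replicate 2 of 4Gts). In mRNA 21 of the 33 were higher and 0 lower with no overlap, where 26.3% and 25.7% of all genes were. The other genes with called rises in footprints included the cell wall mannoprotein TIR3 (2.17, SE 0.27), the steryl ester hydrolase YEH1 (1.89, SE 0.25) and the vacuolar zinc transporter ZRC1 (1.70, SE 0.23), each with a limma adjusted p of 0.0451.

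The heat shock list had medians below 0 in mRNA and footprints, with no called member, while those of the general stress list changed sign with the culture left out. The 43 heat shock proteins and chaperones had medians of -0.81 in mRNA, -0.76 in footprints and 0.00 in TE, and took 4.78% and 8.29% of footprints in 4Gts, against 10.4% and 14.6% in WT. The groups did not overlap in mRNA for 24 lower and 3 higher members, beside 25.7% and 26.3% of all genes tested. The footprint median was -0.34 without replicate 1 of 4Gts and -1.20 without replicate 2. SSA4, an inducible Hsp70, had 31.6 and 69.8 mRNA RPKM in 4Gts, against 153 and 466 in WT (difference -2.54, SE 1.16, limma adjusted p = 0.285), and HSP104, the disaggregase, had 330 and 622 in 4Gts, against 679 and 1221 in WT (difference -1.07, SE 0.69, limma adjusted p = 0.425). HSP12 overlapped between the strains, with 484 and 1308 mRNA RPKM in 4Gts, against 1125 and 1684 in WT. The 41 general stress genes had no called member and medians of -0.34 in mRNA and -0.47 in footprints. Their mRNA median was 0.36 without replicate 1 of 4Gts, -0.74 without replicate 2, -0.82 without replicate 1 of WT and 0.13 without replicate 2. Their footprint median was 0.07 without replicate 1 of 4Gts and -1.10 without replicate 2.

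The 20 tested genes of the unfolded protein response, among them HAC1, had medians of -1.0 in mRNA, -0.67 in footprints and 0.33 in TE. KAR2, the Hsp70 of the endoplasmic reticulum and a classic target of Hac1, had 574 and 454 mRNA RPKM in 4Gts, against 2889 and 1969 in WT, a difference of -2.28 (SE 0.56, limma adjusted p = 0.106). SIL1, its exchange factor, had 38.3 and 24.7 in 4Gts, against 225 and 111 in WT (difference -2.39, SE 0.53, limma adjusted p = 0.0976). Both were lower in each 4Gts culture. The list's footprint median was -0.09 without replicate 1 of WT and -1.10 without replicate 2, and its mRNA median was -0.55 without replicate 2 of 4Gts and -0.64 without replicate 1 of WT.

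The galactose genes were lower in 4Gts but far apart between its 2 cultures, and no member passed. GAL1, the galactokinase, had 936 and 169 mRNA RPKM in 4Gts, against 1481 and 1927 in WT, and GAL10, the epimerase, 1975 and 275 in 4Gts, against 3269 and 4677 in WT. Replicate 2 of 4Gts was the lowest for both, and the mRNA difference of GAL1 was -0.80 within replicate 1 and -3.48 within replicate 2 (-2.14 over both, SE 0.98, limma adjusted p = 0.285). Over the 10 tested galactose genes the mRNA medians were -1.31 in all, -0.83 within replicate 1 and -1.50 within replicate 2, and without replicate 2 of 4Gts the median was -0.86. UBR1, a ubiquitin ligase that marks proteins by their first residue (the N-end rule), followed the same order, with 346 and 76.1 mRNA RPKM in 4Gts, against 713 and 1331 in WT (difference -2.63, SE 0.83, limma adjusted p = 0.17). The part of these galactose and UBR1 values in the other differences was not tested. The 15 tested genes of the N-end rule and ubiquitin list, UBR1 among them, had an mRNA median of -0.19, and of -0.10 without replicate 1 of WT.

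Lists of amino acid, sulfur and purine synthesis had medians above 0 in mRNA and below 0 in TE. The 62 tested Gcn4 targets and amino acid genes had medians of 0.37 in mRNA and -0.26 in TE, with a footprint median of 0.16, and the mRNA median was 0.62 without replicate 1 of WT and 0.23 without replicate 2. HIS3 had 167 and 155 mRNA RPKM in 4Gts, against 68.7 and 64.5 in WT (difference 1.20, SE 0.23, limma adjusted p = 0.0811), while HIS4, another histidine gene, had 73.2 and 85 in 4Gts, against 77.4 and 62.5 in WT and overlapped. The 21 purine synthesis genes had medians of 0.68 in mRNA, -0.38 in TE and 0.17 in footprints, and PRS5 had a TE difference of -1.02 (SE 0.17, limma adjusted p = 0.054). The 20 tested methionine and sulfur genes had 0.46 in mRNA and -0.35 in TE, with SAM1, an S-adenosylmethionine synthetase, at 501 and 337 mRNA RPKM in 4Gts, against 85 and 80 in WT. For the Gcn4, purine and methionine lists the footprint median took the opposite sign, at -0.04, -0.05 and -0.02, when replicate 2 of WT was left out, and for the purine list also without replicate 1 of 4Gts (-0.13). PCL5 in TE was the member of these 3 lists that passed.

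Of the 25 genes of glycolysis and ethanol metabolism, 18 were lower and 0 higher in TE with no overlap, beside 26.3% and 25.8% of all genes. The 25 genes had medians of -0.40 in TE and -0.66 in footprints. They took 7.64% and 8.87% of footprints in 4Gts, against 12.5% and 10.5% in WT. ADH5, an alcohol dehydrogenase, had 2.96 and 6.19 footprint RPKM in 4Gts, against 38 and 72.0 in WT, and a TE difference of -1.88 (SE 0.56, limma adjusted p = 0.126). The remaining lists had TE medians near that of all genes: 0.11 over 35 proteasome genes, 0.04 over 22 mRNA decay factors, -0.02 over 10 histone genes and -0.15 over 15 genes of the iron regulon. The footprint medians were -0.22 for the proteasome, -0.07 for mRNA decay, -0.53 for histones and 0.16 for iron, and no member of these 4 lists passed in any readout. With each of the 4 cultures left out, these footprint medians ran from -0.45 (without replicate 2 of WT) to -0.05 (without replicate 1 of WT) for the proteasome and from -0.05 (without replicate 2 of 4Gts) to 0.38 (without replicate 1 of 4Gts) for iron. For mRNA decay they ran from -0.16 to 0.00. The TE median was 0.03 without replicate 2 of 4Gts and 0.39 after quantile normalization for the proteasome, -0.02 without replicate 2 of WT for mRNA decay, -0.16 and 0.07 without replicates 1 and 2 of WT for histones, and 0.14 after quantile normalization for iron. PRE1, a proteasome subunit, had 123 and 98.9 mRNA RPKM in 4Gts, against 183 and 132 in WT.

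**Figure D5:**
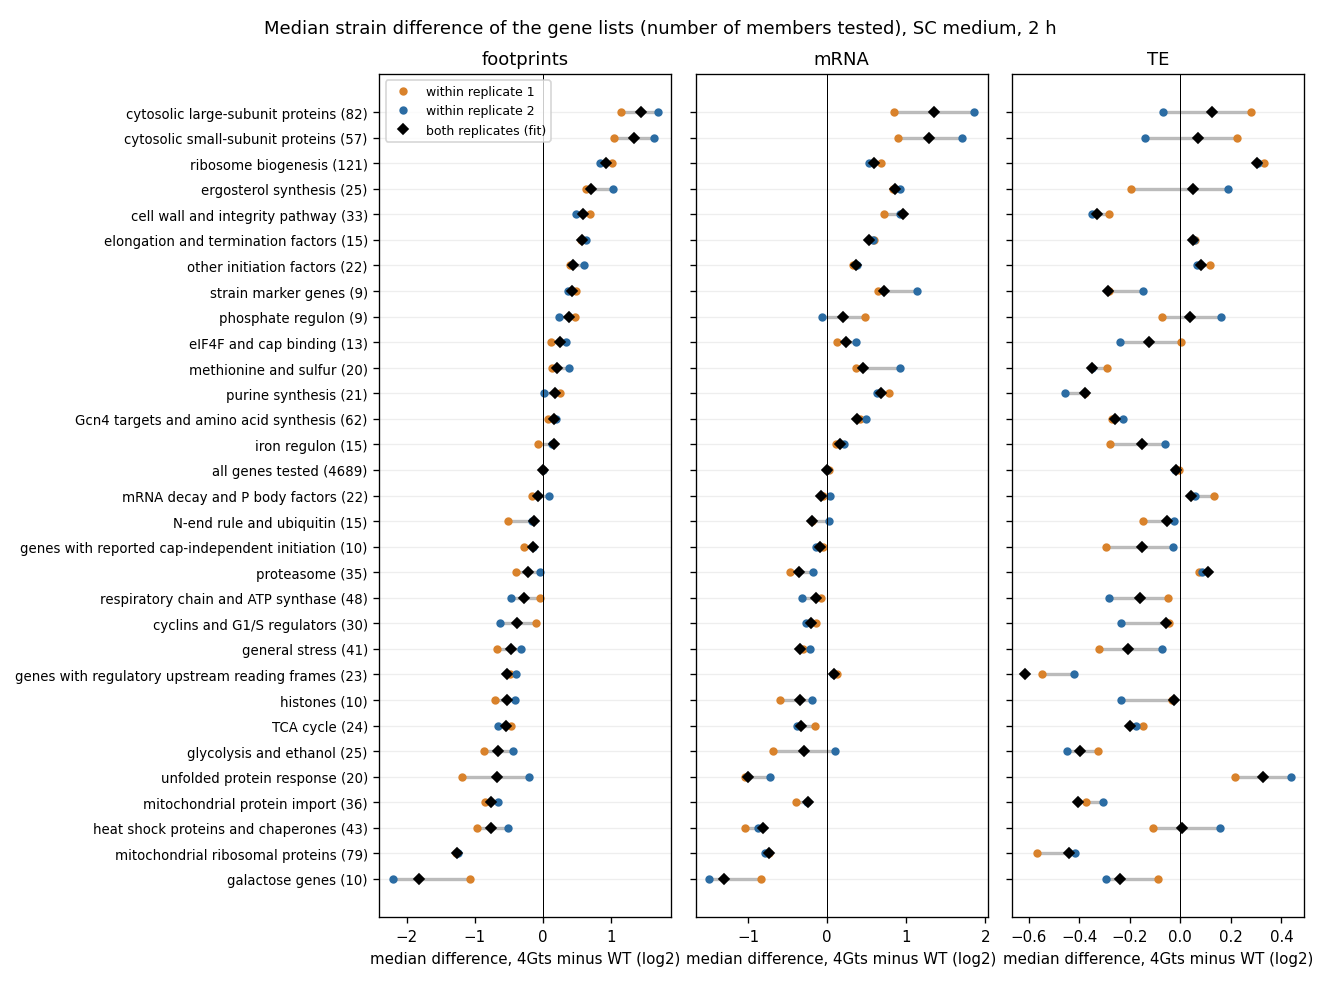
Median difference, 4Gts minus WT in log2, of each gene list with at least 9 tested members in footprints, mRNA and TE, with the number tested in brackets; black diamonds are both replicates together, orange and blue points the medians within replicates 1 and 2. The lists are ordered by footprint median, from -1.82 for galactose genes to 1.44 for cytosolic large-subunit proteins, with all genes tested at 0.00; the TE axis spans a much narrower range.

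Over all genes the spread of TE was wider in 4Gts. The standard deviation of log2 TE over 4689 genes was 1.43 and 1.45 in 4Gts, against 1.27 and 1.30 in WT, and the interquartile range was 1.85 and 1.84 in 4Gts, against 1.54 and 1.6 in WT. In both measures the 4Gts cultures lay above the WT cultures, and for each the exact permutation test, two-sided, gave p = 0.333, the smallest that 2 against 2 cultures allow. The range from the 5th to the 95th percentile was 4.72 and 4.71 in 4Gts, against 4.24 and 4.36 in WT, but with a filter at 50 RPKM it was 4.19 and 4.13 in 4Gts, against 3.82 and 4.17 in WT, and overlapped (exact permutation p = 0.667, two-sided). When genes were divided into 10 equal classes by their TE in WT at 8 h, whose values are not part of the 2 h difference, the median TE difference was -0.01, -0.14, -0.16, -0.12 and -0.10 in the 5 lower classes and -0.05, 0.02, 0.09, 0.10 and 0.16 in the 5 upper ones. The median of the class with the highest TE was 0.20 within replicate 1 and 0.18 within replicate 2. The same classes ran the other way in mRNA, with a median difference of 0.36 in the lowest class and -0.31 in the highest. In footprints these 2 classes had 0.34 and -0.03, so the highest class had lower mRNA and not more footprints. Classes by mRNA level in WT at 8 h also differed in median TE difference, with 0.18 in the lowest, -0.12 in class 9 and -0.04 in the highest. Deviations of same-numbered WT samples at 2 h and 8 h correlated over genes at 0.60 in TE and 0.93 in mRNA. Classes taken from WT at 8 h may therefore share deviations with WT at 2 h.

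The same differences were set beside 8 h at 36 °C in SC and beside YPA medium, in samples that are not part of the 2 h difference, although those at 8 h enter its estimate of the spread. At 8 h, 46 of the 46 genes with lower footprints and 13 of the 13 with higher footprints had the same direction, where 47.7% of all genes were lower and 52.3% higher, with medians of -1.22 and 1.76 there against -1.61 and 2.08 at 2 h. In footprints, the deviations of same-numbered samples at 2 h and 8 h correlated over genes at 0.88 in 4Gts and 0.96 in WT. The test of the difference between the strain effects at 2 h and 8 h gave 0 genes for TE, mRNA and footprints in limma (0% of 4689), with 91, 14 and 5 genes at an unadjusted p below 0.05. The labels do not say whether the 2 h and 8 h samples of a replicate came from the same culture. Of the 8 TE calls 7 were lower in 4Gts at 8 h, where 49.9% of all genes were, and YPR108W-A was the exception, with a TE difference of 0.91. In YPA, a rich medium with 1 culture per strain at 2 h and no test, 46 of 46 genes were lower and 13 of 13 higher in footprints, where 49.8% and 50.2% of all genes were. Of the 8 genes called in TE, 7 had a value in YPA and 5 of them were lower in 4Gts, against 44.8% of all genes. There the TE difference was -1.53 for CLN3, -1.02 for PCL5, -0.63 for MRPL4, -0.89 for TIM23, -1.06 for MTO1 and -3.59 for HAC1, and DSF1 was the gene with a known product that went the other way, at 0.71. The TE medians of lists did not all carry over to YPA. Glycolysis and ethanol had 0.26 there, the TCA cycle 0.23 and Gcn4 targets 0.05. Cell wall genes had -0.02 and mitochondrial import -0.03, beside 0.06 over all genes. Medians with the same sign as in SC included -0.33 for mitochondrial ribosomal proteins and -0.21 for purine synthesis. Genes with upstream reading frames had -0.51 and ribosome biogenesis 0.18.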

How the data were processed

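Ribosome footprints and mRNA were sequenced from each culture. Per the submitters' processing notes, TopHat, DESeq and the sacCer3 build were used; versions and roles were not given in the sources used here. Deposited values were RPKM per gene, for footprints and mRNA, and the authors' table of TE as the ratio of both, which was tried as an alternative. Of the values of at most 10 reads, 80.7% to 86.4% lay within 0.05 of a whole number of reads, which gave the depths. The 4689 of 6692 genes whose mean reached 10 RPKM in each SC table were scaled by the median ratio, and tested on log2(RPKM + 1) with limma 3.58.1 in R 4.3.3 and Benjamini-Hochberg adjustment at 0.05. TE was the footprint minus the mRNA value. The fit held 4 groups of 2 SC cultures with 4 residual degrees of freedom. The fits were tested on simulated data with 200 changed genes. Of genes changed by log2 1, 45.5% were recovered in TE, 0% in mRNA and 0% in footprints. For log2 2 it was 93.5%, 67.5% and 57%, with 10, 14 and 5 false calls. The simulated noise was independent between samples, so it left out deviations shared by same-numbered samples. RefSeq R64 named 6008 of 6692 genes. Genes were named by rule: per readout and direction the 10 largest calls, or with under 4 calls also the 6 largest differences with no overlap and an unadjusted p below 0.05, a preset list of 20 genes, and per list up to 4 calls or the 2 largest differences. The genes, lists and comparison were chosen with earlier results of these data known. The deposited ratio table for YPA was not used, and no sequence is shown.

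Same-numbered samples were not held to pair, as the labels give only a number and there are 2 of them. The alternatives were no scaling, quantile normalization, a pseudocount of 0.1, other filters on low values, the 2 h cultures alone, a replicate block, a trended prior, the authors' TE and each culture left out.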

Additional observations from a re-analysis of the deposited data

How the results depend on the processing

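The counts of genes past the threshold moved with most choices, while the directions of named genes moved with few. Several choices could not move a direction, however. The 2 h cultures alone, the replicate block, the trended prior and the joint model of the 16 libraries leave each 2 h difference as it was. So does leaving out a culture at 8 h. For TE, where 8 passed, the number was 6 without scaling, 0 after quantile normalization, 9 with a pseudocount of 0.1, 0 without the filter on low values, 27 with a filter at 50 RPKM (6 higher and 21 lower, 4 of the 8 among them), 0 with the 2 h cultures alone, 43 with a trended prior (4 and 39, with all 8), 9 with the authors' deposited TE (4 and 5, with 4 of the 8) and 0 in a joint model of the 16 libraries. For mRNA, where 3 passed, it was 51 without scaling, 122 after quantile normalization, 3 with a pseudocount of 0.1, 4 without the filter, 38 with a filter at 50 RPKM, 2 with the 2 h cultures alone and 3 with a trended prior. For footprints, where 59 passed, it was 2 without scaling, 3 after quantile normalization, 59 with a pseudocount of 0.1, 1 without the filter, 0 with a filter at 50 RPKM, 0 with the 2 h cultures alone and 66 with a trended prior. With each SC culture left out the number was 0 to 98 for TE, 0 to 4 for mRNA and 0 to 1 for footprints. The test of the difference between 2 h and 8 h gave 0 genes in each readout, and for TE 1 without scaling and 1 with the block. The wider spread of TE in 4Gts was 0.15 in standard deviation, 0.16 with a pseudocount of 0.1 and 0.11 with a filter at 50 RPKM, where the 5th to 95th percentile range overlapped between the strains.

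With the replicate number as a block, 321 genes passed for TE (93 higher and 228 lower), 1244 for mRNA (682 and 562) and 1504 for footprints (739 and 765). With the block in the 2 h cultures alone, an alternative chosen after seeing the data, 331 (90 higher and 241 lower), 81 and 993 passed. Samples of the same number deviated from their group means together, with correlations over genes of 0.14 to 0.60 in TE, 0.56 to 0.93 in mRNA and 0.68 to 0.96 in footprints, and with 2 numbers this is a hint from the data and not the design.

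Of the values of named genes, 26 took the opposite sign in a fit under an alternative, all from differences that had not passed. This number leaves out sign changes within a single replicate for genes that had not passed. Such changes occurred, as in TE of CDC33 (-0.09 within replicate 2, 0.08 over both) and footprints of HSP12 (0.02 within replicate 2, -0.47 over both). In TE after quantile normalization, RPL3 had -0.0337 (0.04 as reported) and TIF1 0.0111 (-0.12), and TIF4632 had 0.0289 with a pseudocount of 0.1 (-0.54). With each SC culture left out, TE ranged from -0.0332 to 0.116 for RPL3, -0.0345 to 0.19 for CDC33, -0.34 to 0.0901 for UBR1, -0.19 to 0.207 for HIS4, -0.0522 to 0.10 for TEF1 and -0.269 to 0.0243 for TIF1. In mRNA after quantile normalization, CLN3 had -0.11 (0.19), PAB1 -0.16 (0.05) and HIS4 -0.0014 (0.12), and PAB1 had -0.0364 with a filter at 50 RPKM. With each culture left out, mRNA ranged from -0.16 to 0.54 for CLN3, -0.22 to 0.32 for PAB1, -0.070 to 0.555 for CDC33, -0.62 to 0.36 for PCL5 and -0.115 to 0.355 for HIS4, and footprints from -1.12 to 0.18 for HSP12 and -0.16 to 0.419 for HIS4. The cause of these moves was not tested.

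Of the other values for named genes, 361 lost the call, 280 gained it and 3927 did neither. The 3927 include the values within replicates 1 and 2, which have no p-value and so could not change a call. Of the list medians, 1618 moved by less than the spread between replicates and 329 by more. The 1618 include the choices named above that could not move a 2 h median, so they do not measure stability. The alternatives on leader sequence were not run, as no genome was used here. The limits are 2 cultures per strain, relative units that hide a change shared by all genes, and 4 residual degrees of freedom, with no label that says whether the 2 h and 8 h samples of a number were 1 culture. At these depths 10 RPKM carries a counting error of up to 16% for a gene of 1 kb.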
